A study of Mus musculus with 18 samples.

Results

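The first day of factor induction was described here by comparing the 2 arrays of cells 24 h after induction (day 1) with the 2 arrays of the same fibroblasts before it (day 0), 4 of the 18 arrays of a mouse reprogramming time course. All 20233 genes with a named probe set were followed, each through the RefSeq probe set whose mean level across all 18 arrays was highest. The series sampled induced cells up to day 15, cells 3 days after withdrawal on day 18 and an established line of induced pluripotent stem cells (iPSCs), with 2 arrays for each of 9 groups. The day 0 cells were secondary embryonic fibroblasts at passage 4, grown from E13.5 embryos that derived wholly from iPSCs through tetraploid complementation. Both days had the genotype Oct4-GFP, Rosa26-M2rtTA: a reporter of the Oct4 gene, and a doxycycline-dependent activator expressed from a broadly active locus, here switching on the factors Oct4, Sox2, Klf4 and Myc (OSKM). Day 0 cells were kept in medium with 10% fetal bovine serum. Day 1 cells had spent 24 h in embryonic stem cell medium with 15% serum, mercaptoethanol, nonessential amino acids, nucleosides, LIF at 1000 U/ml, doxycycline at 1 µg/ml and vitamin C at 50 µg/ml. Factors, LIF, vitamin C and medium therefore changed together, and their effects cannot be told apart. Nothing in the labels places the 2 arrays of a group in separate cultures. Every p-value therefore rests on the spread between arrays of the same group, pooled over all 9 groups. That spread may be technical.

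In secondary reprogramming, cells that already carry the inducible factor genes are switched on at the same moment, so early changes can be read from a whole culture. Myc is a general activator of growth genes, among them those for making ribosomes and nucleotides, and binds the E-box CACGTG with its partner Max. Oct4 (gene Pou5f1), Sox2 and Klf4 bind many closed sites in fibroblast chromatin early, while the endogenous pluripotency genes are known to be activated late. Loss of the fibroblast programme, with its matrix genes and positional regulators, is among the earliest recorded steps.

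Levels are log2 RMA values, so a difference of 1 is a 2-fold change, and each difference is given as day 1 minus day 0 with its standard error (SE) from limma, which pools the spread of all 9 groups (n = 2 arrays each). Calls required both a difference of at least 1 on the log2 scale and a limma p under 0.05 after Benjamini-Hochberg adjustment over all 20233 genes. In the counts below, genes that rose or fell were called. Those that did not pass the test missed 1 or both requirements. Many of the latter missed only the minimum difference, since 10123 genes had an adjusted p under 0.05 at any size. The 1075 olfactory receptor genes, which fibroblasts do not use, set a background: 95% of them lay under 5.22, and a difference that starts or ends under that level is only a rough one. Values ranged from 2.12 to 13.72. The 2 arrays of a day correlated at 0.998 on both days, and only 6 genes on day 0 and 5 on day 1 differed by over 2-fold between the arrays. Between the 2 arrays of day 18, which add to the pooled spread, 264 genes differed by over 2-fold. On day 1, 1541 genes were called higher (7.62% of all genes) and 1324 lower (6.54%), so 14.2% were called in either direction. No called gene had overlapping arrays. The median difference of all genes was 0.01. Large falls outnumbered large rises: 349 genes were lower by at least 4-fold and 169 higher, and at 8-fold the counts were 100 and 26. Differences ranged from -5.90 to 6.01. Of the genes called higher, 124 had a day 0 level under background, and of those called lower, 222 had a day 1 level under it.

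**Figure D1:**
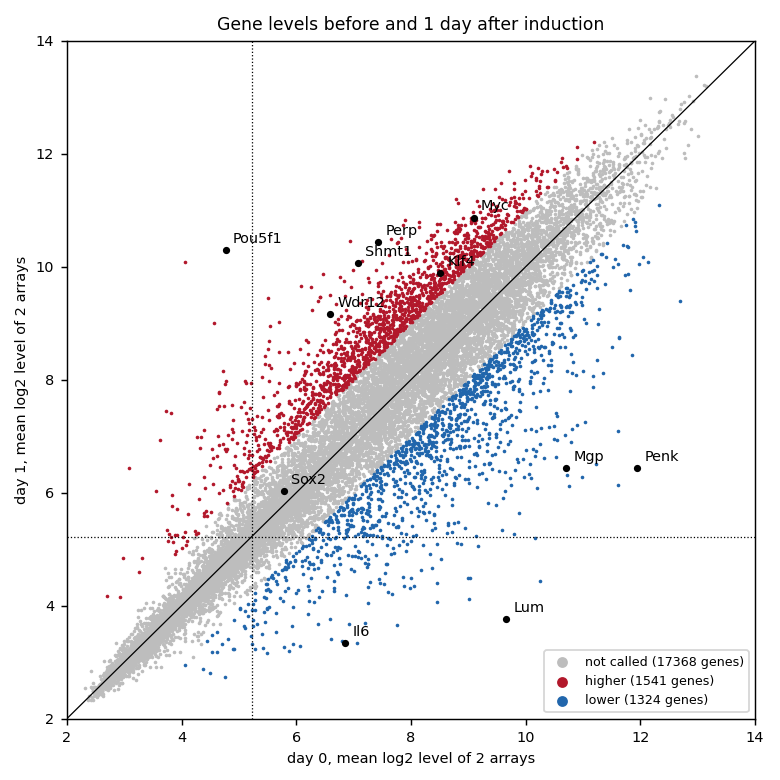
Mean log2 level of each of 20233 genes on day 0 (x axis) and day 1 (y axis), over 2 arrays a day. The 1541 genes called higher lie above the diagonal and the 1324 called lower below it, and more falls than rises lie far from it (100 against 26 genes at 8-fold or more).

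The day 0 cells expressed the markers of their fibroblast label, and the summed marker level was lower on day 1. The summed level of the 15 fibroblast markers, as log2 of the sum of linear values, was 15.42 and 15.45 on day 0 and 14.61 and 14.61 on day 1. Vim, the intermediate filament of mesenchymal cells, was measured at 12.87 and 12.98 on day 0 and at 12.92 and 12.93 on day 1, a difference of 0.01. The 15 measured fibroblast markers had a median difference of -1.23: none rose, 8 fell and 7 did not pass the test. Of all genes 6.54% were called lower and 7.62% higher, against 53.3% and 0% of these markers. The levels come from whole cultures, so fewer fibroblasts and less RNA of these genes per fibroblast cannot be told apart. Among markers of other cell types, the 16 macrophage and blood markers were present from the start, with a summed level of 11.57 to 11.69 on day 0 and 11.62 to 11.74 on day 1. One of them, Itgam, rose (1.22), and Lyz2, the macrophage lysozyme, was at 10.36 and 10.34 on day 0 and at 10.24 and 10.30 on day 1. With limma and no minimum difference, 6 of the 16 were higher and 3 lower at an adjusted p under 0.05. Of all 20233 genes, 5629 were higher and 4494 lower at that threshold. The 10 endothelial markers summed to 9.07 to 9.08 on day 0 and 9.27 to 9.30 on day 1, the 11 skeletal muscle markers to 9.44 to 9.51 and 10.00 to 10.03, and the 7 Schwann cell and neural crest markers to 8.23 to 8.38 and 8.45 to 8.53. In those lists Tek (2.18, from a day 0 level under background) and Acta1 (1.35) were the called genes. The 8 pluripotent cell markers summed to 7.83 to 7.86 on day 0 and 7.85 to 7.94 on day 1, 5 of them were under background on both days and none was called (with limma, 1 higher and 2 lower had an adjusted p under 0.05 at a smaller difference). No marker is listed at 0 on this scale.

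Of the factor genes, Pou5f1, Myc and Klf4 rose and Sox2 did not pass the test. Pou5f1 was measured at 4.73 and 4.81 on day 0 and at 10.28 and 10.32 on day 1. The day 0 arrays lay under background and the day 1 arrays far above it, a difference of 5.53 ± 0.07 (adjusted p = 3.72e-15, limma). Myc was measured at 9.09 and 9.09 on day 0 and at 10.81 and 10.92 on day 1, a difference of 1.78 ± 0.09 (adjusted p = 8.11e-10, limma). Klf4 was measured at 8.36 and 8.65 on day 0 and at 9.87 and 9.90 on day 1, a difference of 1.38 ± 0.08 (adjusted p = 6.14e-09, limma). For both genes each day 1 array was above both day 0 arrays, and the day 0 arrays were above background. Sox2 was measured at 5.62 and 5.94 on day 0 and at 5.98 and 6.06 on day 1, a difference of 0.24 ± 0.12 (adjusted p = 0.117, limma). Whether the probe sets read the transgene, the endogenous gene or both was not tested. Among the partners that share the E-box with Myc, Max, its dimerisation partner, had a difference of 0.89 and was not called. The antagonist gene Mxd4 fell (-1.32) and Mxi1, another antagonist, rose (1.44).

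The genes for making ribosomes rose almost as a block. Among 38 ribosome biogenesis genes, 37 rose and none fell, 1 did not pass the test and the median difference was 1.53. Wdr12, part of the PeBoW complex that matures the large subunit, was measured at 6.63 and 6.55 on day 0 and at 9.06 and 9.25 on day 1. The arrays of the days were far apart, with a difference of 2.57 ± 0.11 (adjusted p = 2.42e-10, limma), or 5.95-fold. Polr1b, a core subunit of RNA polymerase I, was measured at 8.91 and 8.67 on day 0 and at 11.19 and 11.21 on day 1, a difference of 2.41 ± 0.08. Rrp9, a protein of the U3 particle that cleaves pre-rRNA, was measured at 7.94 and 7.89 on day 0 and at 10.30 and 10.33 on day 1, a difference of 2.40 ± 0.07. The chaperone gene Grwd1 (2.29), the pseudouridine synthase gene Dkc1 (2.16), the polymerase I subunit gene Polr1e (2.13) and the nucleolar genes Nop16 (1.98) and Nolc1 (1.92) followed. The member that was not called was Rrs1, at 7.74 and 7.73 on day 0 and at 8.43 and 8.06 on day 1, a difference of 0.50 ± 0.19. For the proteins of the finished cytosolic ribosome the share of genes called higher, 9.09%, was near that of all genes, 7.62%. Of the 22 measured cytosolic ribosomal protein genes, 2 rose, none fell and 20 did not pass the test, with a median difference of 0.18. The 2 were Rps24 (1.66) and Rpl37 (1.06); whether probes of this family also read its processed pseudogenes was not tested. The 30 measured mitochondrial ribosome genes had a median difference of 1.00: 14 rose, none fell and 16 did not pass the test. Mrpl12 (1.58), Mrpl19 (1.50) and Mrps18b (1.38) rose most among them. Genes of the RNA polymerase III branch were among the largest rises of all genes: Polr3g, a polymerase III subunit, was measured at 6.42 and 6.41 on day 0 and at 9.45 and 9.49 on day 1, a difference of 3.06 ± 0.07, and Rpp25, a subunit of RNase P, rose by 3.31.

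Of the classical Myc target genes 47.8% were called higher, and of the genes of nucleotide synthesis 80.0%, against 7.62% of all genes. Among 23 classical Myc target genes, 11 rose and none fell, 12 did not pass the test and the median difference was 0.96. Tfrc, the transferrin receptor that brings iron into cells, was measured at 7.77 and 7.73 on day 0 and at 10.38 and 10.46 on day 1. All day 1 values exceeded all day 0 values, by 2.67 ± 0.09 (adjusted p = 4.21e-11, limma). Odc1, the first enzyme of polyamine synthesis, rose by 2.01, the cell cycle phosphatase gene Cdc25a by 1.87, Phb, for prohibitin of the mitochondrial inner membrane, by 1.74, and the DNA repair gene Apex1 by 1.55. Of the 25 measured genes of purine and pyrimidine synthesis, 20 rose, 2 fell and 3 did not pass the test, with a median difference of 1.35. Umps, which completes the synthesis of uridine monophosphate, was measured at 8.17 and 8.11 on day 0 and at 10.70 and 10.69 on day 1, a difference of 2.55 ± 0.06 (adjusted p = 2.67e-12, limma). Ppat, the committed step of purine synthesis, differed by 2.23 ± 0.10. The rises also took in Rrm2 of ribonucleotide reductase (1.92), Prps1, which makes the activated ribose (1.86), Pfas (1.80) and Dhodh (1.73). The 2 that fell were Nt5e, a surface enzyme that breaks AMP down to adenosine rather than making nucleotides, at 8.16 and 8.17 on day 0 and at 5.77 and 6.01 on day 1, and the CTP synthase gene Ctps2 (-1.50).

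**Figure D2:**
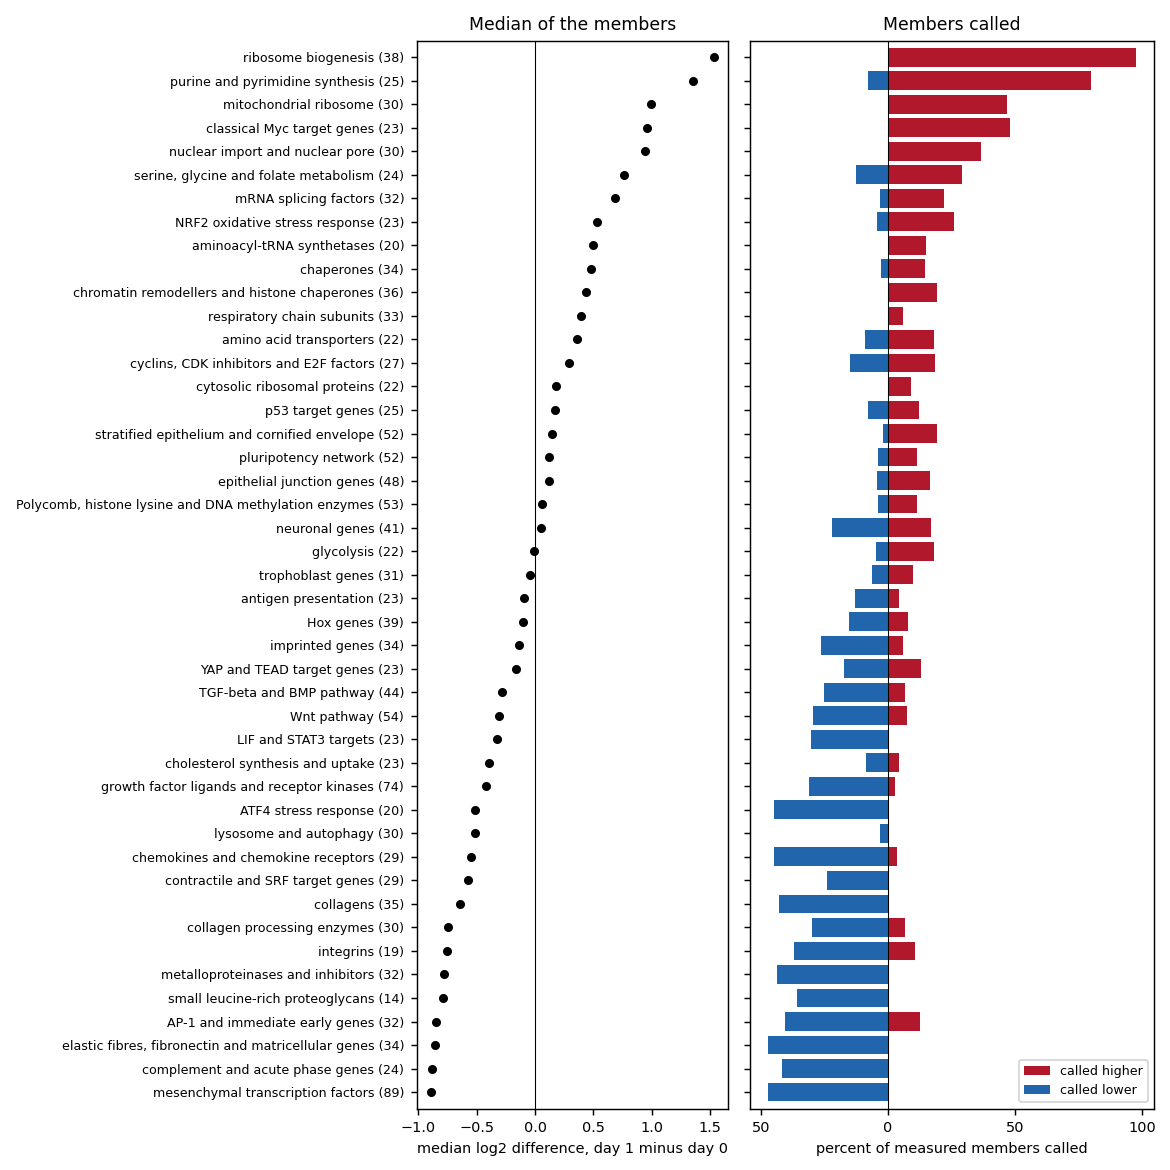
Left, the median log2 difference (day 1 minus day 0) of the measured members of each gene list, with their number in brackets. Right, the percent of members called higher (red, to the right of 0) or lower (blue, to the left); ribosome biogenesis stands highest, with 37 of 38 members called higher, and the mesenchymal and matrix lists extend to the left.

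Promoter windows were read for the E-box because the ribosome and Myc target lists moved together. RefSeq windows (GRCm38.p6) of 300 bases, from 250 bases before to 50 after a start, were found for 15703 genes. CACGTG, which reads the same on both strands, was in the window of 186 of the 1212 genes called higher (15.3%), of 77 of the 944 called lower (8.16%), of 11.1% of the uncalled genes above background and of 9.50% of all 15703 genes. By list it was in 10 of 33 ribosome biogenesis genes (30.3%), 9 of 21 classical Myc targets (42.9%) and 5 of 22 genes of nucleotide synthesis (22.7%). It was in 1 of 26 contractile and SRF target genes and 2 of 49 mesenchymal transcription factor genes. In the 150 bases before the start alone CACGTG was in 2 of 33 ribosome biogenesis genes (6.06%), 6 of 21 Myc targets (28.6%) and 4 of 22 nucleotide synthesis genes (18.2%). The shares there were 8.66% of higher genes, 5.72% of lower genes, 6.97% of uncalled genes above background and 5.89% of all genes. For the ribosome list the share in this shorter stretch was thus near that of all genes. The 15703 genes had 19281 windows, and a gene was counted if any of its windows held the motif. The E2F site TTTCCCGC was found for 3.47% of the higher, 1.06% of the lower and 1.75% of all genes with a window, and TTTGGCGC for 1.82%, 0.530% and 0.815%. Among uncalled genes above background the shares were 2.16% and 0.999%. The octamer ATGCAAAT was found for 1.65% of the higher, 2.86% of the lower and 1.96% of all these genes, and the Klf site CCACACCC for 2.97%, 3.81% and 4.35%. Among uncalled genes above background the shares were 1.52% and 4.86%. The AP-1 site TGACTCA was found for 3.30% of the higher, 5.51% of the lower, 5.36% of all these genes and 4.96% of the uncalled ones above background. The CArG box, bound by SRF, was in 1.24%, 2.44% and 1.59%, and in 1.55% of the uncalled genes above background. It was in 7 of 26 contractile and SRF target genes (26.9%). All motifs were searched on both strands with exact letters apart from the CArG box. The Myc target list and the contractile and SRF target list are named for the factors that bind the E-box and the CArG box. Their shares of these motifs are therefore not independent support. A match is only a description of the letters, and no binding was measured.

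The following windows show the E-box, in capitals, in 3 ribosome genes and 3 Myc targets that rose. They also show the CArG box, in capitals, in 2 genes of the contractile and SRF target list that fell. Each is printed 5′ to 3′ on the strand of its gene. In Apex1 the window holds 3 E-boxes, whose first bases lie from position -24 to 21 relative to the start; the single motif begins at position 34 in Grwd1, -60 in Nop2, 28 in Ltv1, -232 in Phb, -18 in Nme1, -96 in Fhl2 and -62 in Filip1l.
Grwd1, chr7:45830740-45831039, minus strand: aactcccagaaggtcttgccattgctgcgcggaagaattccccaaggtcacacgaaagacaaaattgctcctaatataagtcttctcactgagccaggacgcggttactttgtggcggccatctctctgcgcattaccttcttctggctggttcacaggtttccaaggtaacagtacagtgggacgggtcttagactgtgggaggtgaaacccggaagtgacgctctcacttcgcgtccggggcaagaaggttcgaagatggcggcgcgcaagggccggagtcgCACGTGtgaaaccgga
Nop2, chr6:125131633-125131932, plus strand: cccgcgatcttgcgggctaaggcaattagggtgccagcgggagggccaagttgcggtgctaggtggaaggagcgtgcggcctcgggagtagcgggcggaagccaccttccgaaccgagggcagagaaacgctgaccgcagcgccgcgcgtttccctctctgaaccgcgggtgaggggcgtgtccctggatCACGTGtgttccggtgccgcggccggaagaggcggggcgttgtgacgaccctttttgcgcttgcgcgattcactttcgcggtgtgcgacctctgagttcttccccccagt
Ltv1, chr10:13193088-13193387, minus strand: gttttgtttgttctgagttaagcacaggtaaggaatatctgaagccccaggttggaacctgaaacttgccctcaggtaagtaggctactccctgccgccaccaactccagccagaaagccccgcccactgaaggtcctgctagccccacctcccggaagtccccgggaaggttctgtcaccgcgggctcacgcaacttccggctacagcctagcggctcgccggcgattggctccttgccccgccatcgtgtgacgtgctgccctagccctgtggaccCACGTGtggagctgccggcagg
Phb, chr11:95666707-95667006, plus strand: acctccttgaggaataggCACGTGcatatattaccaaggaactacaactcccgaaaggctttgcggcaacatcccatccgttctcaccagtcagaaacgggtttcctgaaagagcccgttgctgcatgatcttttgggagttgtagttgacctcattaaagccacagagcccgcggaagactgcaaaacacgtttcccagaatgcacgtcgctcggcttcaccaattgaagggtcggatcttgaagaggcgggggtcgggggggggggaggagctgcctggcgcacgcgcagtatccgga
Apex1, chr14:50924699-50924998, plus strand: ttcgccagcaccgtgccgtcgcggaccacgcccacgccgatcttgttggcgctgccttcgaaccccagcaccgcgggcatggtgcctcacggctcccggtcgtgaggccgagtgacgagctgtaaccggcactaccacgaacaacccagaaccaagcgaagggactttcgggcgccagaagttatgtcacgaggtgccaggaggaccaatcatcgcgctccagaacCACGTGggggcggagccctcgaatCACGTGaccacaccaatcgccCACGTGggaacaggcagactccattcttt
Nme1, chr11:93968223-93968522, minus strand: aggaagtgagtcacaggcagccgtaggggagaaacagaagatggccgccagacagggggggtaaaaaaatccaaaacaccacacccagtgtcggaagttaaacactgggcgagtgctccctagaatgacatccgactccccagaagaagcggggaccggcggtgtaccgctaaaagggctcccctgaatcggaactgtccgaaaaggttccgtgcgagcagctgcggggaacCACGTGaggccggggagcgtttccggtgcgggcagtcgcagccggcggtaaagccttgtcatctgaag
Fhl2, chr1:43196712-43197011, minus strand: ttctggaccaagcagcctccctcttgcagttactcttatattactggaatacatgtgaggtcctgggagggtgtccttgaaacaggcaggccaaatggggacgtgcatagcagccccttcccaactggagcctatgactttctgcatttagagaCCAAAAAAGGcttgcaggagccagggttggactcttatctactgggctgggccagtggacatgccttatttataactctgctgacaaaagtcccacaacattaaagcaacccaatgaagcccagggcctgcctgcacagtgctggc
Filip1l, chr16:57548992-57549291, plus strand: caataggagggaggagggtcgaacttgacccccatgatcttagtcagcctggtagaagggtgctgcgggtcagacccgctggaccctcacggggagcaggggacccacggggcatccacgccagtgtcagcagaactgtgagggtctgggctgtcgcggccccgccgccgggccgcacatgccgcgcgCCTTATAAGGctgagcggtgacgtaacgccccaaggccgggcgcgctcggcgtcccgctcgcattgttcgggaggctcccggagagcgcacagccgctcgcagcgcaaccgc

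Genes of one-carbon metabolism changed both ways, with Shmt1 and Mthfd1 higher and Aldh1l2 lower, and none of the ATF4 response genes rose. Called higher were 29.2% of the serine, glycine and folate list, 18.2% of amino acid transporters and 15% of aminoacyl-tRNA synthetases, against 7.62% of all genes. Called lower were 12.5%, 9.09% and 0% of them, and 45% of the ATF4 list, against 6.54%. The 24 measured genes of serine, glycine and folate metabolism had a median difference of 0.76: 7 rose, 3 fell and 14 did not pass the test. Shmt1, the cytosolic enzyme that passes a carbon from serine to folate, was measured at 7.23 and 6.90 on day 0 and at 10.08 and 10.06 on day 1. The day 1 arrays were higher by 3.00 ± 0.09 (adjusted p = 1.19e-11, limma), or 8-fold. Mthfd1, the cytosolic enzyme that interconverts the folate carbons, was measured at 8.41 and 8.38 on day 0 and at 10.54 and 10.58 on day 1, a difference of 2.16 ± 0.07. The mitochondrial counterparts Shmt2 (0.76) and Mthfd2 (0.66) were not called. Aldh1l2, a mitochondrial enzyme that burns the folate carbon to carbon dioxide, was measured at 9.83 and 9.81 on day 0 and at 6.43 and 6.38 on day 1, a difference of -3.41 ± 0.13 (adjusted p = 1.34e-10, limma). Gldc of the glycine cleavage system (1.91) and the methionine synthase gene Mtr (1.55) rose. Among 20 ATF4 response genes, none rose and 9 fell, 11 did not pass the test and the median difference was -0.51. ATF4 is the transcription factor that answers amino acid shortage and stress of the endoplasmic reticulum. Chac1, which degrades glutathione, was measured at 9.04 and 8.98 on day 0 and at 6.29 and 6.60 on day 1, a difference of -2.56 ± 0.12. The pseudokinase gene Trib3 (-2.47), the mitochondrial Pck2 (-2.36), Atf5 (-1.90), the cystine transporter gene Slc7a11 (-1.86) and Ddit3 (-1.55) fell with it. Atf4 itself (-0.40) and the synthesis genes Asns (0.24), Phgdh (0.38) and Psat1 (0.41) were not called. The medium of the day 1 cells held added nonessential amino acids and mercaptoethanol, and their part in these differences cannot be told apart from that of the factors. Of the 22 measured amino acid transporter genes, 4 rose, 2 fell and 16 did not pass the test, with a median difference of 0.36. The glycine transporter gene Slc6a9 fell (-1.95), while Slc16a10, for aromatic amino acids (1.90), Slc7a1, for cationic ones (1.24), and the glutamine carrier gene Slc1a5 (1.16) rose. The 20 measured aminoacyl-tRNA synthetase genes had a median difference of 0.50: 3 rose, none fell and 17 did not pass the test. They were Hars (1.26), Wars (1.19) and Farsa (1.08).

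Among genes of nuclear transport (36.7%), splicing (21.9%) and chromatin assembly (19.4%) more were called higher than lower, against 7.62% of all genes higher. Cell cycle genes were called in both directions, 18.5% higher and 14.8% lower, against 6.54% of all genes lower. The shares were nearer those of all genes for p53 targets (12% higher, 8% lower) and for Polycomb, histone lysine and DNA methylation enzymes (11.3% and 3.77%). Of the NRF2 list 26.1% and of the chaperones 14.7% were called higher. Among 30 nuclear import and nuclear pore genes, 11 rose and none fell, 19 did not pass the test and the median difference was 0.94. With the arrays quantile normalized again the higher count was 7, and 14 with median centred arrays. Rcc1, the exchange factor that loads the transport protein Ran (1.97), and the pore gene Nup43 (1.88) rose most. Of the 32 measured splicing factor genes, 7 rose, 1 fell and 24 did not pass the test, with a median difference of 0.68. Snrpa1 of the U2 particle rose by 1.73 and the epithelial splicing regulator gene Esrp2 by 1.69, while Rbfox2 fell (-1.29). The 36 measured genes of chromatin remodellers and histone chaperones had a median difference of 0.44: 7 rose, none fell and 29 did not pass the test. They included the remodeller genes Chd7 (1.88) and Hells (1.74) and Chaf1b (1.69), a subunit of the assembly factor that places histones on new DNA. Among 53 genes of Polycomb, histone lysine and DNA methylation enzymes, 6 rose and 2 fell, 45 did not pass the test and the median difference was 0.06. Pcgf6 of a variant Polycomb complex (1.74), the histone methyltransferase gene Suv39h2 (1.73) and Wdr5 (1.34) rose. The demethylase gene Kdm5b (-1.49) and Tet2 (-1.08), which oxidises methylated cytosine, fell, while Dnmt1 (0.95), Ezh2 (0.93) and Tet1 (0.26) were not called. Of the 27 measured genes of cyclins, CDK inhibitors and E2F factors, 5 rose, 4 fell and 18 did not pass the test, with a median difference of 0.29. The cyclin E genes Ccne2 (1.87) and Ccne1 (1.47), which drive entry into S phase, rose. Cdkn1b, for the inhibitor p27, was measured at 7.77 and 7.76 on day 0 and at 5.87 and 5.97 on day 1, a difference of -1.85 ± 0.09. The inhibitor genes Cdkn2b (-1.49) and Cdkn1c (-1.48) fell as well, and Cdkn1a, for p21, was not called (0.11). The 25 measured p53 target genes had a median difference of 0.17: 3 rose, 2 fell and 20 did not pass the test. The largest of them was Perp, also a desmosome gene, at 7.43 and 7.43 on day 0 and at 10.40 and 10.46 on day 1, a difference of 3.00 ± 0.10, while Gadd45a (-1.46) and Btg2 (-1.35) fell. Among 23 NRF2 oxidative stress genes, 6 rose and 1 fell, 16 did not pass the test and the median difference was 0.53. The glutathione transferase gene Gsta4, at 7.41 and 7.38 on day 0 and at 9.92 and 9.94 on day 1, rose by 2.54 ± 0.06, and Cbr3 (2.03), Gclc (1.47) and Nqo1 (1.39) rose too. Of the 34 measured chaperone genes, 5 rose, 1 fell and 28 did not pass the test, with a median difference of 0.48. With the arrays quantile normalized again 1 chaperone gene was called higher. Hsph1, a partner of the heat shock protein Hsp70, rose (1.55), and Xbp1, a regulator of secretory capacity, fell, being measured at 10.80 and 10.79 on day 0 and at 8.88 and 8.89 on day 1.

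**Figure D3:**
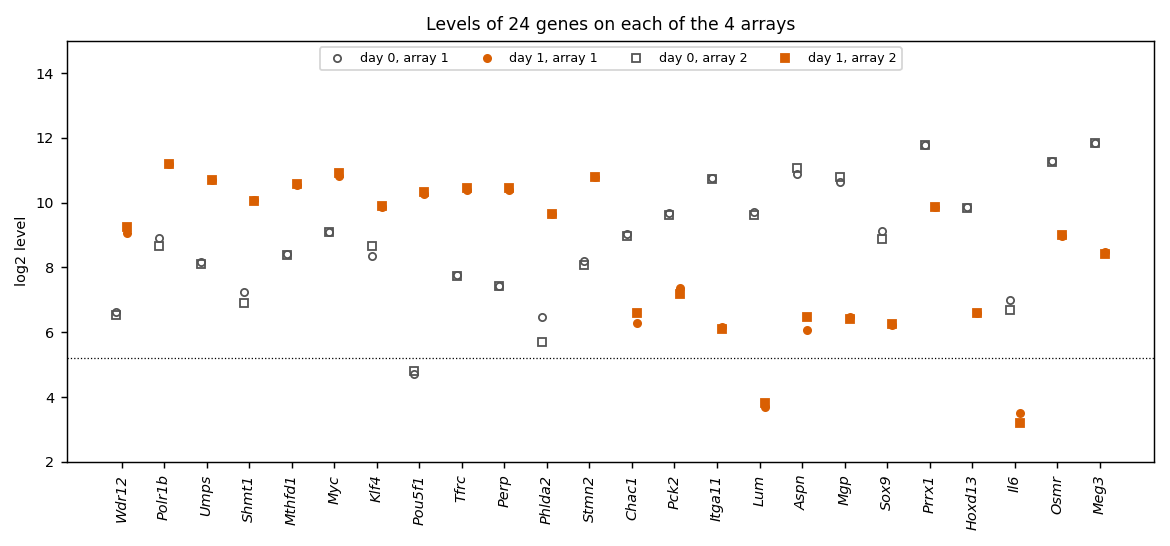
Log2 levels of 24 genes on the 4 arrays: open grey marks for day 0, filled orange marks for day 1, one shape for each array. The dotted line is the background of 5.22; in genes called higher or lower the marks of the days do not overlap.

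In each list of extracellular matrix genes more members fell than rose. Of all genes 6.54% were called lower and 7.62% higher. Called lower were 42.9% of collagens, 30% of collagen processing enzymes and 47.1% of elastic fibre, fibronectin and matricellular genes. So were 35.7% of small leucine-rich proteoglycans, 43.8% of metalloproteinases and inhibitors and 36.8% of integrins. Called higher were 6.67% of collagen processing enzymes, 10.5% of integrins and 0% of each other list. The 35 measured collagen genes had a median difference of -0.65: none rose, 15 fell and 20 did not pass the test. Col6a2, a chain of the pericellular collagen VI, was measured at 10.75 and 10.79 on day 0 and at 7.79 and 7.81 on day 1. The day 1 arrays were lower by 7.82-fold, a difference of -2.97 ± 0.18, and its partner genes Col6a1 (-2.79) and Col6a3 (-2.05) fell with it. The fibrillar genes Col3a1 (-3.12), Col5a1 (-2.14), Col1a2 (-1.86) and Col1a1 (-1.22) fell, whereas the basement membrane genes Col4a1 (0.26) and Col4a2 (-0.06) were not called. Among 30 genes of collagen processing enzymes, 2 rose and 9 fell, 19 did not pass the test and the median difference was -0.75. With the arrays quantile normalized again 14 were called lower. Pcolce2, an enhancer of procollagen cleavage, went the other way, at 7.86 and 7.91 on day 0 and at 10.85 and 10.81 on day 1, and the proline hydroxylase gene P3h2 rose (1.68), while Loxl3 (-2.07), which crosslinks collagen, and Adamts2 (-2.02), which trims procollagen, fell. Of the 34 measured elastic fibre, fibronectin and matricellular genes, none rose, 16 fell and 18 did not pass the test, with a median difference of -0.86. Spp1, for the secreted protein osteopontin, was measured at 12.59 and 12.80 on day 0 and at 9.39 and 9.38 on day 1, a difference of -3.31 ± 0.07 (adjusted p = 1.96e-12, limma). The microfibril genes Mfap4 (-3.23), Fbn2 (-2.90) and Mfap2 (-2.89) fell, and Fn1, for fibronectin, was not called (-0.45). The 14 measured genes of small leucine-rich proteoglycans had a median difference of -0.79: none rose, 5 fell and 9 did not pass the test. Podn was measured at 10.82 and 10.78 on day 0 and at 6.89 and 6.91 on day 1, a difference of -3.89 ± 0.27. Fmod (-3.57) and Ogn (-3.44), both regulators of collagen fibrils, also fell. Dcn, for decorin, was measured at 10.71 and 10.71 on day 0 and at 9.48 and 9.49 on day 1, but its SE over the 9 groups was wide (-1.23 ± 0.51, adjusted p = 0.0605, limma) and it was not called. Among 32 genes of metalloproteinases and their inhibitors, none rose and 14 fell, 18 did not pass the test and the median difference was -0.78. Mmp19 (-3.70), Mmp3 (-3.68, to a level under background), Adamts4 (-2.53) and the inhibitor gene Reck (-2.09) fell. Mgp, an inhibitor of matrix calcification, was among the largest falls of all genes, at 10.64 and 10.78 on day 0 and at 6.46 and 6.40 on day 1, a difference of -4.27 ± 0.19. Of the 19 measured integrin genes, 2 rose, 7 fell and 10 did not pass the test, with a median difference of -0.75. Itga11, for a collagen receptor of fibroblasts, had the largest fall among them (-4.64), Itgb8 (-2.04) and Itga1 (-1.94) fell too, and Itga6, a laminin receptor of epithelial cells, was measured at 7.88 and 7.59 on day 0 and at 9.35 and 9.40 on day 1, a difference of 1.64 ± 0.09.

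Of the contractile genes 24.1% were called lower on day 1, against 6.54% of all genes. The 29 measured contractile and SRF target genes had a median difference of -0.57: none rose, 7 fell and 22 did not pass the test. With the arrays quantile normalized again 11 were called lower. Acta2, for smooth muscle actin, was measured at 12.48 and 12.41 on day 0 and at 12.36 and 12.52 on day 1, with the arrays of the days overlapping. Tagln (-0.36), Myl9 (-0.56) and Cnn1 (-0.42) were not called on day 1. From day 1 to day 3, where 0.722% of all genes were called higher and 2.31% lower (3.03% in all), all of these 3 fell, with differences of -2.15, -2.05 and -2.35. Lmod1, which nucleates actin filaments (-1.99), the myosin light chain kinase gene Mylk (-1.90), Fhl2 (-1.88) and Filip1l (-1.79), whose CArG boxes are printed above, fell in the first day. Among 23 YAP and TEAD target genes, 3 rose and 4 fell, 16 did not pass the test and the median difference was -0.17. Ankrd1, a mechanically induced target, fell (-1.40) and Tead4 rose (1.57).

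Of the genes for mesenchymal regulators, 42 of 89 fell (47.2%, against 6.54% of all genes), and Hox genes were called in both directions. Of the 89 measured mesenchymal transcription factor genes, none rose, 42 fell and 47 did not pass the test, with a median difference of -0.89. Sox9, the regulator of cartilage, was measured at 9.11 and 8.88 on day 0 and at 6.22 and 6.25 on day 1, a difference of -2.76 ± 0.11 (adjusted p = 1.79e-10, limma). Trps1 (-2.45), Lhx9 (-2.39), Osr1 (-2.29) and the limb genes Tbx5 (-2.13), Tbx4 (-2.06) and Prrx1 (-1.91) fell. Of the repressors of epithelial genes, Zeb1 (-1.44) and Snai2 (-1.57) fell, while Twist1 (-0.64) and Zeb2 (-0.60) were not called. Between day 1 and day 3 the median of the same list was -0.05, with 2 members called higher and 2 lower. The 39 measured Hox genes had a median difference of -0.10: 3 rose, 6 fell and 30 did not pass the test. The share called higher, 7.69%, was that of all genes (7.62%), and the share called lower was 15.4%, against 6.54%. Hoxd13, which patterns the digits, was measured at 9.86 and 9.84 on day 0 and at 6.60 and 6.59 on day 1, and the day 1 arrays were lower by 9.54-fold, a difference of -3.25 ± 0.16. Its cluster neighbours Hoxd11 (-2.85), Hoxd12 (-2.55, to a level under background) and Hoxd10 (-2.45) fell, as did Hoxa13 (-2.43, likewise) and Hoxa10 (-1.20). The 3 that rose were all of the Hoxc cluster: Hoxc9, at 7.39 and 7.43 on day 0 and at 8.90 and 8.97 on day 1, a difference of 1.53 ± 0.13, Hoxc5 (1.35) and Hoxc13 (1.16, from a level under background).

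Signalling and immune genes fell more often than they rose in each list examined. Called lower were 30.4% of LIF and STAT3 genes, 40.6% of AP-1 genes, 25% of TGF-beta and BMP genes and 29.6% of Wnt genes. So were 31.1% of growth factor genes, 41.7% of complement genes, 44.8% of chemokine genes and 13.04% of antigen presentation genes. Of all genes 6.54% were called lower and 7.62% higher. Called higher were 12.5% of the AP-1 list, 7.41% of Wnt, 6.82% of TGF-beta and at most 4.35% of each other list. Among 23 genes of LIF signalling and STAT3 targets, none rose and 7 fell, 16 did not pass the test and the median difference was -0.33. LIF was in the medium of day 1 and not of day 0, and the subunits of its receptor were lower there. Lifr, the LIF binding subunit, was measured at 8.77 and 8.79 on day 0 and at 7.27 and 7.31 on day 1, a difference of -1.49 ± 0.08. Il6st, for the shared subunit gp130, was measured at 11.56 and 11.57 on day 0 and at 10.15 and 10.12 on day 1, a difference of -1.43 ± 0.10. Osmr, the related receptor for oncostatin M, was measured at 11.28 and 11.26 on day 0 and at 8.97 and 9.01 on day 1, a difference of -2.28 ± 0.18 (adjusted p = 8.80e-08, limma). All 3 had day 1 arrays below both day 0 arrays. The feedback gene Socs3, a rapid target of STAT3, was not called (-0.18), nor was Stat3 (-0.80), and Bcl3 (-1.85) and Cebpd (-1.80) fell. Of the 32 measured AP-1 and immediate early genes, 4 rose, 13 fell and 15 did not pass the test, with a median difference of -0.85. Egr2 (-2.21), Fosl2 (-1.69) and Fos (-1.15) fell, and the phosphatase gene Dusp4 (1.78), Klf10 (1.44), Mafk (1.34) and Fosl1 (1.33) rose. The 44 measured TGF-beta and BMP pathway genes had a median difference of -0.28: 3 rose, 11 fell and 30 did not pass the test. The ligand gene Bmp4, at 9.96 and 9.96 on day 0 and at 6.64 and 6.55 on day 1, differed by -3.36 ± 0.11, and the secreted antagonist gene Grem1 fell (-3.13), while the antagonist gene Fst (1.58), Bmp6 (1.35) and Smad9 (1.90) rose. Among 54 Wnt pathway genes, 4 rose and 16 fell, 34 did not pass the test and the median difference was -0.31, and 5 lay under background on both days. Secreted members led the falls, with Dkk3 (-3.61), Rspo2 (-3.50, to a level under background), Dkk2 (-3.27) and Wnt16 (-3.03), and the nuclear effector gene Lef1 (1.67) and Wnt2 (1.56, from a level under background) rose. Of the 74 measured growth factor and receptor kinase genes, 2 rose, 23 fell and 49 did not pass the test, with a median difference of -0.42. The mesenchymal ligand genes Fgf7 (-3.70), Hgf (-2.69) and Angpt1 (-2.71) fell, the last 2 to levels under background, and the receptor genes Tek and Met (1.44) rose, Met being the receptor for Hgf. The 24 measured complement and acute phase genes had a median difference of -0.89: none rose, 10 fell and 14 did not pass the test, and 7 lay under background on both days. The interleukin receptor gene Il1r1 (-3.33), Cp (-3.14, to a level under background) and Serpina3n (-3.08) fell. Among 29 genes of chemokines and their receptors, 1 rose and 13 fell, 15 did not pass the test and the median difference was -0.55, and 8 lay under background on both days. Cxcl12, which recruits blood stem cells, was measured at 10.19 and 10.21 on day 0 and at 6.06 and 6.11 on day 1, a difference of -4.11 ± 0.28, and Ccl9 rose (1.20). Of the 23 measured antigen presentation genes, 1 rose, 3 fell and 19 did not pass the test, with a median difference of -0.09, and 5 lay under background on both days. They were Psmb10, of the immunoproteasome (1.42), and Tapbp (-1.36), H2-T23 (-1.13) and Tap2 (-1.09). The ranges of the summed macrophage markers on the days, given above, overlap; their part in these lists was not tested further.

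The shares called higher in the lists of pluripotency (11.5%) and trophoblast genes (9.68%) were near the 7.62% of all genes, and those of epithelial junction (16.7%), stratified epithelium (19.2%) and neuronal genes (17.1%) were above it. Of the 41 neuronal genes 9 were called lower, a larger share than the 6.54% of all genes. The 52 measured pluripotency network genes had a median difference of 0.12: 6 rose, 2 fell and 44 did not pass the test, and 16 lay under background on both days. Besides the factor genes, Rif1 (1.51), Alpl, the alkaline phosphatase used as an early marker (1.45), and Lin28b (1.35, from a level under background) rose, and Klf2 (-1.57) and Zic2 (-1.06) fell. Nanog was measured at 5.63 and 5.67 on day 0 and at 4.64 and 5.30 on day 1, a difference of -0.68 that was not called. In the iPSC line 39 of the 52 genes were higher than on day 1, where 7.42% of all genes were, and the median difference from day 1 was 3.34. Among 48 epithelial junction genes, 8 rose and 2 fell, 38 did not pass the test and the median difference was 0.12, and 13 lay under background on both days. The gap junction gene Gjb2 fell (-3.22). Dsc2 of desmosomes (2.80, from a level under background), the protease gene St14 (1.82) and the epidermal regulator gene Grhl3 (1.35) rose and Cldn1 fell (-2.18). E-cadherin (Cdh1, 0.44) and the simple epithelial keratin genes Krt8 (0.09) and Krt18 (0.05) were not called on day 1. Of the 52 measured genes of stratified epithelium and its cornified envelope, 10 rose, 1 fell and 41 did not pass the test, with a median difference of 0.15, and 21 lay under background on both days. Ivl (2.15) and Krt14 (1.36) rose from levels under background and Sprr3 rose (1.95), while Sprr1a fell (-1.09). The 8 keratinocyte markers summed to 7.96 to 8.13 on day 0 and 8.68 on both arrays of day 1, with Ivl and Krt14 the called ones. The 41 measured neuronal genes had a median difference of 0.05: 7 rose, 9 fell and 25 did not pass the test, and 8 lay under background on both days. Stmn2, a growth cone gene, was measured at 8.20 and 8.07 on day 0 and at 10.78 and 10.79 on day 1, a difference of 2.65 ± 0.09, Elavl2 (1.57) and Tubb3 (1.40) rose, and Dclk1 (-2.28) fell. Among 31 trophoblast genes, 3 rose and 2 fell, 26 did not pass the test and the median difference was -0.05, and 10 lay under background on both days. Phlda2, an imprinted gene that restrains placental growth, was measured at 6.48 and 5.70 on day 0 and at 9.65 and 9.65 on day 1, a difference of 3.56 ± 0.19, and Bmp8b rose (2.82), but Tfap2a (-2.03) and Gata3 (-1.45), regulators of trophoblast, fell. The 8 adipocyte markers summed to 9.17 to 9.18 on day 0 and 10.24 to 10.25 on day 1. Among them Lpl (3.38 ± 0.42) and Pparg (1.50) rose and Fabp4 fell (-2.83, to a level under background).

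Several imprinted genes fell, among them Meg3, and microRNA genes near Meg3 fell as well. Of the 34 measured imprinted genes, 2 rose, 9 fell and 23 did not pass the test, with a median difference of -0.14. The share called lower was 26.5%, against 6.54% of all genes, and the share called higher 5.88%, against 7.62%. Meg3, a maternally expressed noncoding RNA, was measured at 11.85 and 11.85 on day 0 and at 8.47 and 8.41 on day 1, a difference of -3.40 ± 0.18 (adjusted p = 2.09e-09, limma), and was higher again in the iPSC line than on day 1 by 3.08. The paternally expressed genes Peg3 (-2.86) and Mest (-2.05) fell, as did Igf2r (-1.68), and Grb10 rose (1.30).

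Of 331 microRNA genes measured, 10 were called higher and 51 lower, and 191 were under background on both days. The share called higher was smaller than that of all genes (7.62%), and the share called lower was larger (6.54% of all genes). The genes called lower include Mir22 and its host gene Mir22hg, which had the same values. The probe sets read the precursor or its host transcript, not the mature microRNA. The mature sequences of the main precursors described below are shown, from RefSeq (GRCm38.p6), since the seed, bases 2 to 8, in capitals, sets which messages a microRNA recognises. RefSeq entries were matched for 55 of the 61 called genes. The first group is of precursors that fell.
mmu-miR-377-3p: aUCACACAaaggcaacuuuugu
mmu-miR-377-5p: aGAGGUUGcccuuggugaauuc
mmu-miR-323-3p: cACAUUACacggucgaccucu
mmu-miR-382-5p: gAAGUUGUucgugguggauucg
mmu-miR-380-3p: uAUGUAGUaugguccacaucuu
mmu-miR-214-3p: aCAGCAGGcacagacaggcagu
mmu-miR-214-5p: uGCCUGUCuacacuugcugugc
mmu-miR-199a-3p: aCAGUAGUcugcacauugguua
mmu-miR-199a-5p: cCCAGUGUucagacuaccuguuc

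The second group is of the Mir17hg cluster, a direct Myc target on chromosome 14.
mmu-miR-18a-5p: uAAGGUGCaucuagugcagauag
mmu-miR-20a-5p: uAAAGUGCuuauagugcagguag
mmu-miR-19a-3p: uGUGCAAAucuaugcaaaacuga
mmu-miR-19b-3p: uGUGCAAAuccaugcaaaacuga
mmu-miR-92a-3p: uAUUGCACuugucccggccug

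Mir377 was measured at 7.76 and 7.74 on day 0 and at 3.63 and 3.68 on day 1, a difference of -4.10 ± 0.14 (adjusted p = 4.21e-11, limma). Mir323 was measured at 8.02 and 8.09 on day 0 and at 4.43 and 4.28 on day 1, a difference of -3.71 ± 0.19. Both day 1 arrays were under background for these 2 genes, and both lie in the Meg3 to Mirg stretch of chromosome 12 (chr12:109571990-109743795 in GRCm38.p6), as do Mir382 (-3.46) and Mir380 (-3.43). Of its 42 measured microRNA genes 31 were called lower, none higher, and all 42 had a negative difference, from -4.10 to -0.17 with a median of -1.60. This stretch was singled out after its values were seen, 13 of the 42 were under background on both days, and many of its precursors share a host transcript, so they are not independent. In the iPSC line 10 of the 42 were called higher than on day 1. Of the 289 microRNA genes elsewhere 13 were, and of all genes 7.42%. Among the 289 microRNA genes elsewhere, 10 were called higher and 20 lower, with a median of -0.05. There the share called lower was near the 6.54% of all genes, and the share called higher was below their 7.62%. Mir145a, a microRNA of smooth muscle, was measured at 8.45 and 8.45 on day 0 and at 4.07 and 4.06 on day 1, a difference of -4.39 ± 0.46 (adjusted p = 1.76e-06, limma), and its neighbour Mir143 fell (-2.54). Mir214, expressed with Mir199a-2 from one mesenchymal transcript, was measured at 10.16 and 10.02 on day 0 and at 6.13 and 6.39 on day 1, a difference of -3.83 ± 0.22, and Mir199a-2 fell (-3.19), as did Mir199a-1 (-1.09), which gives the same mature microRNAs. In the Mir17hg cluster (chr14:115043671-115046728) 6 of 7 measured genes were called higher, with a median of 2.13. Mir18 was measured at 4.58 and 4.20 on day 0 and at 7.04 and 7.16 on day 1, a difference of 2.71 ± 0.15 (adjusted p = 2.46e-09, limma), and the host gene Mir17hg was measured at 4.86 and 4.44 on day 0 and at 6.84 and 6.83 on day 1, a difference of 2.19 ± 0.13. For both, the day 0 arrays were under background and the day 1 arrays above it, and 3 of the cluster's genes, Mir17, Mir19a and Mir20a, were under it on both days. Mir92-1 rose by 2.24 and Mir19b-1 by 2.13. The cluster was also singled out after its values were seen. miR-19a-3p and miR-19b-3p share the seed GUGCAAA, as printed above.

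**Figure D4:**
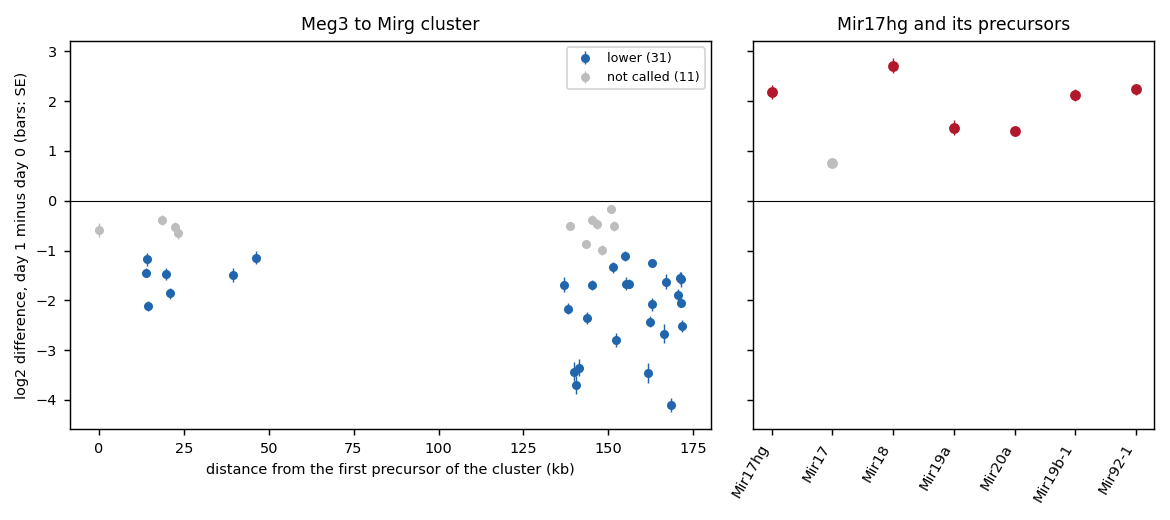
Log2 difference (day 1 minus day 0, bars SE, y axes) of microRNA precursors: left, the 42 genes of the Meg3 to Mirg cluster by distance in kb from its first precursor, all below 0; right, Mir17hg and its precursors, all above 0. Colour marks the genes called.

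Between day 1 and day 3, 0.722% of all genes were called higher and 2.31% lower. Of the 1541 genes higher on day 1, 38 rose further by day 3, 79 were lower again and 1424 were not called. Of the 1324 lower genes, 128 fell further, 14 were higher again and 1182 were not called. Both comparisons use the day 1 arrays, so these counts are not independent. A test of the first step against the second, (day 1 minus day 0) minus (day 3 minus day 1), called 1907 genes higher (9.43%) and 1301 lower (6.43%), 15.9% in all. Against the iPSC line, 1501 genes (7.42%) were higher in the line than on day 1 and 1565 (7.73%) lower, 15.2% in all. The median difference of the ribosome biogenesis list from the day 0 mean was 1.53 and 1.52 in the day 1 arrays, 1.69 and 1.73 on day 3, 1.73 and 1.73 on day 7, 0.59 and 0.64 on day 18 and 1.03 and 0.98 in the iPSC line.

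A few genes had their extreme on day 1. In 39 genes the day 1 mean was at least 1 above the mean of each of the other 8 groups, and in 4 genes it was at least 1 below. The receptor subunit gene Chrna1, of the muscle nerve junction, was measured at 5.06 and 5.17 on day 0 and at 7.91 and 7.98 on day 1, and its day 1 mean was 2.38 above the next highest group. Birc7, a cell death inhibitor gene whose day 0 level, like that of Chrna1, was under background (1.93 above), the cornified envelope gene Lce1h (1.85), the diacylglycerol kinase gene Dgkk (1.84), the cadherin gene Cdh6 (1.71), Fst (1.50) and Flt4, a receptor of lymphatic vessels (1.45), were of the same kind. The genes with their lowest mean on day 1 were Usp11, a deubiquitinase gene (1.35 below the next lowest group), Lama5, a laminin chain gene (1.19), Tet2 (1.08) and Plce1 (1.03). Chac1 and Slc7a11, described above, turned back by day 3, with day 3 minus day 1 differences of 1.28 and 2.13. Fetub, under background on day 0, rose in both steps, by 3.10 and then by 3.34.

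**Figure D5:**
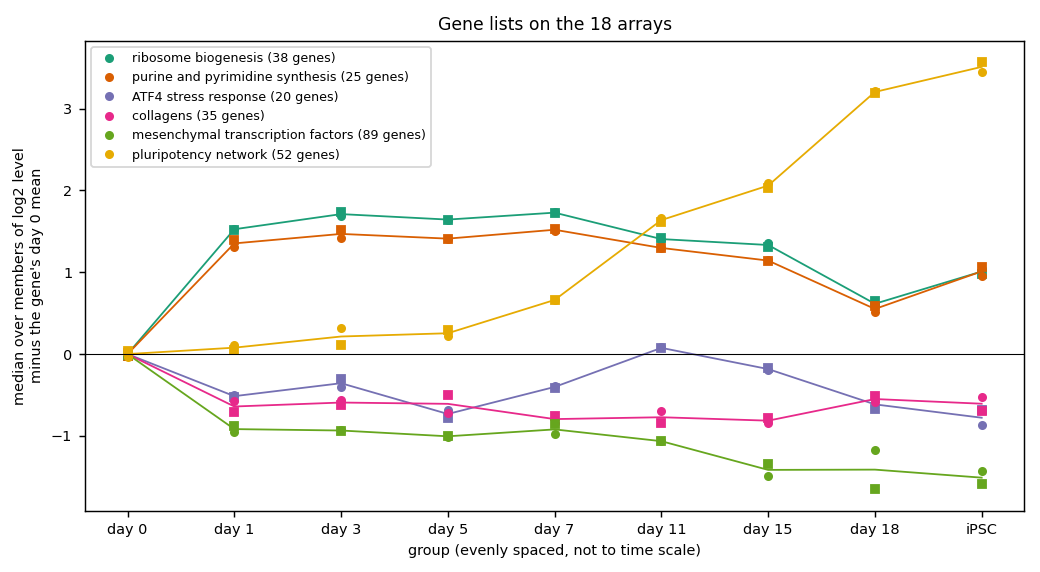
Median over the members of a list of the log2 level minus the day 0 mean of the gene (y axis) in each of the 18 arrays, by group (x axis, evenly spaced), 2 marks a group. The ribosome biogenesis median is at 1.53 and 1.52 on day 1 and at 0.59 and 0.64 on day 18.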

How the data were processed

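The study measured total RNA of 9 groups with 18 Affymetrix arrays, and the authors deposited log2 values made by RMA, per the submitters' processing notes. For the RMA version, the probe set definition and the genome build, nothing was stated (not given in the sources used here). Of 29643 probe sets, 27260 carried 1 RefSeq symbol, none several and 2383 none. Each gene was represented by its probe set of highest mean level across the 18 arrays, which gave 20233 genes, 3982 of them with more than 1 probe set, and 30 genes had the values of another gene. The log2 values were fitted as deposited with limma 3.58.1 in R 4.3.3, with 1 mean for each of the 9 groups, no covariate and 9 residual degrees of freedom. The median SE of a difference was 0.0976, and the number of arrays limits the precision. P-values were adjusted over all genes (Benjamini-Hochberg).

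The members and gene lists were chosen with earlier results of these data known. Named genes were the largest called differences over all genes, above background and within each list, those in the opposite direction, genes fixed by name, and genes with their extreme on day 1. Predicted genes and olfactory receptors were counted but not named. Some genes that the rule names are not reported here. The fit was tested on simulated data with 20233 genes: all genes changed by 1.2, 1.5, 2 or 3 on the log2 scale were recovered (100% at each size), and 1 unchanged gene was called. The simulated noise was normal and, for each gene, equal in all groups, and every change exceeded the minimum. The simulation therefore cannot show how calls fare where the spread differs between groups. Alternatives changed the normalization, filter, probe set rule, variance model, call rule and arrays used.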

Additional observations from a re-analysis of the deposited data

How the results depend on the processing

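The counts of called genes depended on the minimum difference. With limma's treat test against a difference of 1, the first day had 879 genes higher and 771 lower, day 3 against day 1 had 50 and 128, the first step against the second 755 and 477, and iPSC against day 1 949 and 924. With no minimum the counts were 5629 and 4494, 3405 and 3176, 4596 and 3548, and 5169 and 5615, in the same order. Members of the 45 pathway lists called on day 1 numbered 216 higher and 277 lower, and 518 and 561 with no minimum. CACGTG in the 150 bases before the start was in 8.66% of the genes called higher and 5.72% of those called lower. It was in 6.97% of the uncalled genes above background and 5.89% of all genes. Leaving out each array of days 0 and 1 in turn, with the lone array assumed to vary like the other groups, gave 1500 to 1612 genes higher and 1275 to 1358 lower for the first day, 144 to 147 and 448 to 481 for day 3 against day 1, 1833 to 1998 and 1268 to 1329 for the steps, 1498 to 1522 and 1551 to 1588 for iPSC against day 1, and 216 to 225 and 265 to 276 for list members. Quantile normalizing again gave 1337 higher and 1397 lower on the first day, and median centring 1671 and 1234, so that 48.9% and 57.5% of called genes were higher, against 53.8%. The other settings gave 1532 to 1541 genes higher and 1303 to 1327 lower.

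The array numbers were not used as pairs in the main fit. Deviations of same-numbered arrays of days 0 and 1 correlated at -0.0864, and 6 of 36 pairs of groups exceeded 0.1. With 2 arrays a group, these values cannot show whether the arrays were paired. With the replicate block the first day had 1541 and 1324 genes called, the steps 1906 and 1301, and the other counts did not move. Of 622 genes followed, 598 were called, and none changed direction under any setting run. Quantile normalizing again lost 34 of these calls, median centring 11, the treat test 166 and leaving out 1 array 12 to 20. Among genes named above, H2-T23 was at -0.85 and Rpl37 at 0.96 without day 0 array 2, Tap2 at -0.92 without day 0 array 1, and Hoxc13 at 0.97 and Mir199a-1 at -0.97 without day 1 array 2, all then under the minimum. Farsa (0.92), Ndufa4 (0.87), Zic2 (-0.94) and Mir199a-1 (-0.99) fell under it after quantile normalizing again, and Srebf2 (-0.99) after median centring. Nanog reached it, at -1.02, without day 1 array 2. Signal limits 5797 genes, which were under background on both days.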

Other observations

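Genes of energy and lipid metabolism were not described above. Of the glycolysis genes 18.2% were called higher, against 7.62% of all genes. At the 2-fold minimum the respiratory chain list (6.06% higher) and the cholesterol list (4.35% higher, 8.70% lower) were near all genes. The shares of all genes were 7.62% and 6.54%. With no minimum difference, 24 of 33 respiratory chain genes were higher and 1 lower at an adjusted p under 0.05 (limma). Of 23 cholesterol genes 4 were then higher and 17 lower, and of all 20233 genes 5629 and 4494. The 22 measured glycolysis genes had a median difference of -0.01: 4 rose, 1 fell and 17 did not pass the test. The neuron-type enolase gene Eno2 fell (-2.43), while the lactate transporter gene Slc16a1 (1.88) and Hk2, for the hexokinase that starts glycolysis (1.41), rose. Among 33 genes of respiratory chain subunits, 2 were called higher and none lower, 31 were not called and the median difference was 0.39. The 2 called were Cycs, for cytochrome c (1.67, from a level under background), and Ndufa4 (1.03). Of the 23 measured genes of cholesterol synthesis and uptake, 1 was called higher, 2 lower and 20 were not called, with a median difference of -0.39. Hmgcs1, an early enzyme of the pathway (-1.18), and the regulator gene Srebf2 (-1.04) fell. The 30 measured lysosome and autophagy genes had a median difference of -0.52: none was called higher, 1 was called lower and 29 were not called. The gene called lower was Wipi1, which acts in autophagosome formation (-1.19). With no minimum difference, 1 of the 30 was higher and 21 were lower at an adjusted p under 0.05 (limma).

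Among the largest differences of all genes were several of no list. The brain-expressed X-linked gene Bex1 (3.36), Serpinb10 (3.30), Mreg (3.21), Frmd3 (3.18) and Slc35f2 (3.13) rose from levels under background. The drug efflux pump gene Abcb1b (3.06), Chchd4, for a mitochondrial import factor (3.05), and Adh7, for a retinol-oxidising alcohol dehydrogenase (3.02), rose from levels above it. Il1rl1, for the receptor of interleukin 33 (-4.41), Il1rn, for the interleukin 1 receptor antagonist (-4.25), the urea transporter gene Slc14a1 (-4.23) and Islr (-3.90) fell.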
